A study of Drosophila melanogaster with 2 samples.

Results

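Peaks at single promoters were the peaks of the *Drosophila melanogaster* zinc finger protein CG31388 that lay at the start of a gene with no head-to-head coding neighbour. A peak was taken when its summit, the point that the authors deposited for each region, lay within 500 bp of an annotated transcription start site (TSS) but not within 500 bp of a TSS of a divergent gene. A protein-coding gene was called divergent when a TSS of another protein-coding gene lay head to head with one of its own, on the opposite strand and within 1000 bp. The rule kept 502 of the 1872 reproducible peaks (26.8%). A further 545 peaks lay at divergent promoters and 825 outside promoters. Of 13945 protein-coding genes, 5052 were divergent and 8893 were not.

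The series is a ChIP-seq study of whole embryos of mixed sex, collected from 0 to 16 hours of development, from the CG31388-GFP strain. The strain is a transgenic line in which an inserted copy of CG31388 is fused at its C-terminal end to green fluorescent protein (GFP), and the precipitation used an antibody against GFP. Both libraries, biological replicates 2 and 4, carry the transgene and form 1 group, so classes of regions and the replicates are compared here, not conditions. Pooled embryos of this age mix all embryonic cell types, and a signal from few cells cannot be told apart from a weak signal in many. The labels give a different protocol document for each library, and any effect of this cannot be told apart from that of the replicate. Regions are not replicates, so p-values over regions describe these lists of regions and not new collections of embryos. Positions are on the dm6 build.

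CG31388 is one of the ZAD zinc finger proteins, a family that is large in insects and whose members join a zinc-finger-associated domain, through which they pair with each other, to zinc fingers that can read DNA. Many fly genes sit back to back and share the DNA between their starts, so that a protein bound there lies upstream of both. A single promoter has no such coding partner, and a summit there was placed upstream or downstream of its nearest start, which can also be that of a non-coding gene.

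The DNA under the strongest of these summits was rich in A and T, which the sequences below show beside a GC-rich one. Each is the 101 bp centred on the summit of a single-promoter peak, read from the dm6 genome of RefSeq, 5′ to 3′ in the direction of the gene. Capitals mark words of 7 bases that were chosen on peaks outside promoters, by the method given with the word counts. The first 8 are the strongest peaks with an upstream summit for which a sequence could be shown, and the last, at the salivary gland and gut regulator *fkh*, is a GC-rich window from a weaker peak.
CG14100 (chr3L:19590576-19590676, minus strand): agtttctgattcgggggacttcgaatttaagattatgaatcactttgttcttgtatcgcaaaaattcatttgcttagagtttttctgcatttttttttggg
ph-p (chrX:2137286-2137386, minus strand): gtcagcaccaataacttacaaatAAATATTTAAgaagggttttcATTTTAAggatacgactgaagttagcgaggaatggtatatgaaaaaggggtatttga
lncRNA:CR44619 (chrX:12751380-12751480, plus strand): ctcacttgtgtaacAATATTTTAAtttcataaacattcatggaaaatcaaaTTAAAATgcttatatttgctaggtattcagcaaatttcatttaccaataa
SLC5A11 (chr2L:8205231-8205331, minus strand): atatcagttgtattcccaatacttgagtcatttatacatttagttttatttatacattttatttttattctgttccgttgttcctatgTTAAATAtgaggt
larp (chr3R:28326576-28326676, minus strand): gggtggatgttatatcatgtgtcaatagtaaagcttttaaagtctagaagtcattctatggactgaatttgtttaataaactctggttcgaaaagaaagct
CG18549 (chr3R:12449137-12449237, plus strand): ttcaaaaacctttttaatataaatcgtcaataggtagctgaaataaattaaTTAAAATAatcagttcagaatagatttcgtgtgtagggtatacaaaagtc
Rtnl1 (chr2L:4997618-4997718, minus strand): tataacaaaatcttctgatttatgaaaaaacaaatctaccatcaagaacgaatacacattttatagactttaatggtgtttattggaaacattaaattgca
CG31145 (chr3R:23669807-23669907, minus strand): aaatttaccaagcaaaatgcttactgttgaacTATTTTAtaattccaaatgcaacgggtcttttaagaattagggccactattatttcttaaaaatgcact
fkh (chr3R:28585441-28585541, minus strand): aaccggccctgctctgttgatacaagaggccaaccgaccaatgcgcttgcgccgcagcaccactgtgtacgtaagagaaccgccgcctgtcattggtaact

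The GC content of these windows was 32.7% for CG14100, *ph-p* and *larp*, 23.8% for lncRNA:CR44619, 24.8% for SLC5A11 and *Rtnl1*, 25.7% for CG18549 and 29.7% for CG31145, against 57.4% for *fkh*. The *ph-p* and lncRNA:CR44619 windows each held 17 bases in capitals, and the windows of *larp*, *Rtnl1* and CG14100, under the strongest peak of all 502, held none. Not all strong peaks were as A/T-rich: among the 20 strongest found in both replicates, CG1888 had 39.6%, asRNA:CR45928 40.6%, lncRNA:CR31044 41.6%, lncRNA:CR31840 42.6% and *Sox14* 43.6%, near the mean of 40.8% in the regions used as background.

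Summits at single promoters lay on the upstream side of the gene. Of the 502 summits 438 were upstream of the nearest TSS (87.3%, 95% exact interval 84.0 to 90.0%). Regions that the authors called on the pooled libraries but that were not reproducible peaks, called candidates here, gave the background at the same kind of promoter, where 2523 of 4410 were upstream (57.2%, 55.7 to 58.7%). Every peak there had a higher enrichment value than any candidate, so each comparison with candidates is also one of strong with weak regions. By Fisher's exact test, two-sided, the odds ratio was 5.12, with a 95% interval of 3.91 to 6.70 and p = 4.43e-44. Against candidates ranked directly below the peaks, as many as there are peaks, it was 2.21 (Fisher's exact p = 2.99e-06). The replicates gave the same side when their own summits were used, with 428 of 492 upstream in replicate 2 (87.0%) and 429 of 501 in replicate 4 (85.6%), a mean of 86.3% ± 0.964 (SD, n = 2). Both replicate summits were upstream for 417 peaks and lay on different sides of the TSS for 15. These summits were taken from replicate regions that cover the pooled summit, so their side is not independent of the pooled one. At divergent promoters 467 of 545 summits were upstream of their nearest TSS (85.7%), but there a place upstream of 1 gene can also be upstream of its neighbour.

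**Figure D1:**
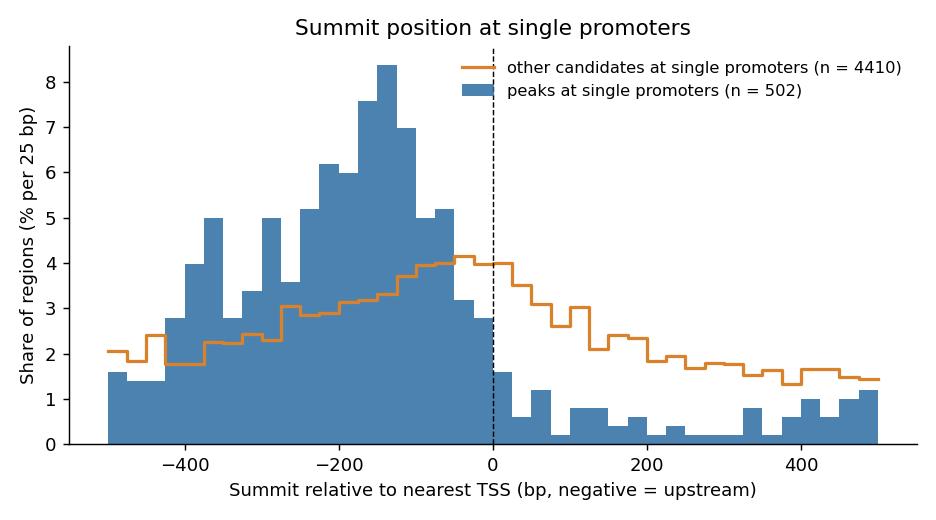
Position of the summit relative to the nearest TSS, in bp with negative values upstream, as a share of regions per 25 bp, for the 502 peaks at single promoters (bars) and for the 4410 other candidates there (line). The peaks gather 100 to 300 bp upstream and are few downstream, whereas the candidates are centred near the TSS.

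The summits stood a short way off the TSS rather than on it. For 452 of the 502 peaks the deposited summit was the middle of the region, and both quartiles of region width were 396 bp. How closely such summits mark the base of highest enrichment was not tested. The median position was -169 bp, with quartiles of -282 and -81.75 bp, against -46 bp in candidates and -99 bp at divergent promoters. Without regard to side, the median distance was 196 bp (quartiles 114.25 and 318.75 bp), against 190 bp in candidates (84 and 325 bp). The gap between the signed medians of peaks and candidates thus reflects side more than distance. By 100 bp steps from 500 bp upstream to the TSS there were 36, 76, 100, 145 and 81 peaks, and from the TSS to 500 bp downstream 18, 13, 5, 9 and 19. The step from 200 to 100 bp upstream thus held 28.9% of the peaks, against 13.3% of candidates, and its median signal of 90.7 was above the 73.1 of the step next to the TSS. Signal is the enrichment value that the authors deposited for each region, with no scale named in the sources used here. Within 100 bp of the TSS lay 99 of 502 summits (19.7%), against 1299 of 4410 candidates (29.5%, odds ratio 0.588, 0.468 to 0.740, two-sided Fisher's exact p = 3.13e-06). With a limit of 200 bp in place of 100 bp the odds ratio was 0.948 (Fisher's exact p = 0.572). The 500 bp limit itself fell between *Cyp310a1* (-500 bp, signal 75.6), lncRNA:CR46535 (500 bp downstream, 110) and CG5973 (-499 bp, 62.3) on the inside and *stv* (-504 bp, 96.7), lncRNA:CR45277 (-505 bp, 62.1) and *nrv1* (-508 bp, 58.7) on the outside.

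The upstream share went down along the ranked list of regions. At single promoters the lowest signal of a peak was 53.8 and the highest of a candidate 53.7. The steps of rank thus divide the same contrast of peaks and candidates more finely. Among regions at single promoters it was 84.4% in the 100 strongest of the pooled list, 88.3% at ranks 101 to 500, 93.1% at 501 to 1000 and 83.5% at 1001 to 1872, where the peaks end. It was 74.9% at ranks 1873 to 4000, 63.4% at 4001 to 7000 and 57.3% at 7001 to 10000, and it reached 50.6% at ranks 20001 to 28750. The first step of candidates thus lay between the peaks and the tail. Over the same steps the median GC content around the summit went from 29.2% to 41.6%. Among the peaks themselves, 4 groups of equal size by falling signal had 87.2, 89.7, 89.6 and 82.5% upstream, with intervals that overlap.

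**Figure D2:**
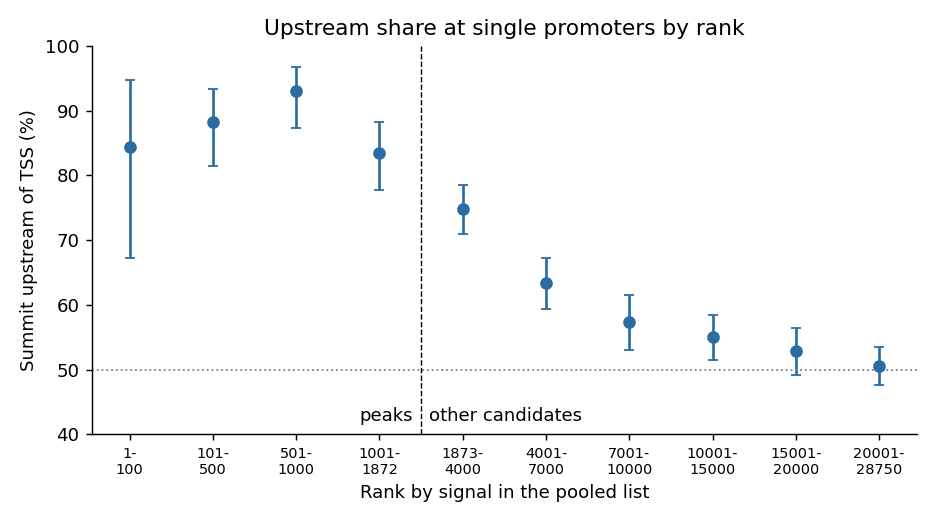
Share of summits upstream of the nearest TSS (%, 95% exact intervals) among regions at single promoters, by rank of signal in the pooled list, with the dashed line at the end of the peaks and the dotted line at 50%. The share stays above 80% through the peaks and falls to 50.6% in the weakest regions.

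Most summits lay between genes or in introns, and hardly any in coding sequence. Between genes lay 264 of the 502 (52.6%, against 32.9% of candidates) and in an intron 159 (31.7% against 22.9%). The 5′ UTR held 38 (7.57% against 19.98%), a non-coding exon 28 and a 3′ UTR 12, and 1 lay in coding sequence (0.199% against 11.7%). Inside the gene of the nearest TSS lay 168 summits, 110 upstream and 58 downstream of that TSS. More than 1 TSS was annotated for the gene at 243 peaks. The upstream share was 88.0% at genes with 1 TSS (228 of 259) and 86.4% at the others (210 of 243). Most sites were plain single promoters, in shares close to those of candidates. The TSSs of 1 gene lay within 500 bp of 450 peaks (89.6% against 90.8% of candidates). Of these 425 had no head-to-head gene of any kind (84.7% of all 502 against 85.4%). Head to head with a non-coding gene lay 53 peaks (10.6% against 9.66%).

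The base composition dipped at the summit. Over the 101 bp around it the GC content was 33.4% ± 8.49 (SD, n = 502), against 40.8% ± 10.5 in candidates (n = 4410) and 31.4% ± 8.64 at divergent peaks (n = 545). Under 30% GC lay 204 of 502 windows (40.6%) and 768 of 4410 candidate windows (17.4%), an odds ratio of 3.25 (2.67 to 3.94, two-sided Fisher's exact p = 3.74e-30, a comparison chosen after the values were seen). Against the strongest candidates the odds ratio was 1.83 (Fisher's exact p = 1.04e-05). Among summits of like position, those 1 to 300 bp upstream, 40.8% of 326 peaks and 22.4% of 1785 candidates were under 30%. Along the DNA the mean of the peaks was lowest, 32.1%, within 20 bp of the summit and was 41.0% at 500 bp on the 5′ side and 46.2% at 500 bp on the side of the gene. Summits next to the TSS were less A/T-rich, with a median GC content of 38.6% in the last 100 bp before it against 29.7% from 200 to 100 bp upstream. Candidates differed in the same direction, with 42.6% and 35.6%.

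**Figure D3:**
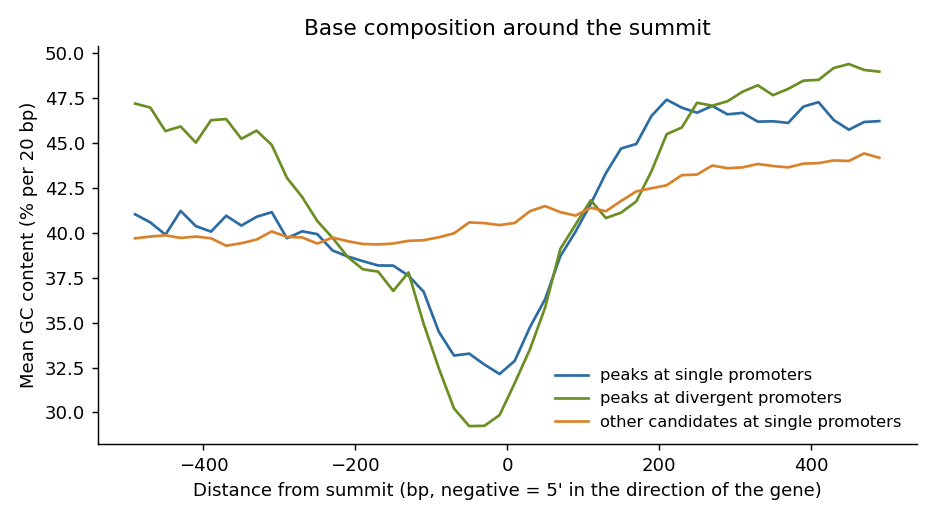
Mean GC content (% per 20 bp) by distance from the summit in bp, with negative values on the 5′ side in the direction of the gene, for peaks at single promoters, peaks at divergent promoters and other candidates at single promoters. The single-promoter peaks are lowest next to the summit (32.1%) and the divergent peaks 50 bp to its 5′ side (29.2%), and the candidates have no such dip.

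Short words of A and T, picked on regions outside promoters, were more frequent at single-promoter peaks than in candidates. Their shares at peaks outside promoters are not given here. The 5 words of 7 bases that differed most in share between peaks and candidates outside promoters were counted on either strand within 50 bp of the single-promoter summits, and all 5 were more frequent there than in candidates. ATTTTAA was present in 79 windows (15.7%) against 7.48% of candidate windows (odds ratio 2.31, Benjamini-Hochberg adjusted p = 3.20e-08 over the 5 words, Fisher's exact test, two-sided). By the same exact test, TATTTAA was in 14.3% against 6.78% (odds ratio 2.30, adjusted p = 7.84e-08). AAAATAT was in 18.1% against 10.4% (1.91, exact test, adjusted p = 1.67e-06). TAAAATA was in 13.3% against 7.23% (1.98, exact test, adjusted p = 8.41e-06), and AAATATT was in 12.7% against 8.46% (1.58, exact test, adjusted p = 0.00214). Among summits 1 to 300 bp upstream, 4 of the 5 passed. The words overlap each other, and each can arise from A/T-rich DNA in general. At divergent peaks their shares were 13.6 to 18.7%.

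Of 10 known promoter and regulator motifs, searched by their letters on both strands in the same windows, 1 differed from candidates. The TATA box letters, TATAAA, were present at 120 peaks (23.9%) and 14.7% of candidates (odds ratio 1.82, 1.46 to 2.27, adjusted p = 3.67e-06 over the 10 motifs, Fisher's exact test, two-sided), and at 28.4% of divergent peaks. These letters are all A or T, and the windows of the peaks had a lower GC content (33.4% against 40.8% in candidates). Whether the share of TATAAA goes beyond that was not tested, and its place relative to the TSS was not examined. The DNA replication-related element, TATCGATA, was present at 9 peaks (1.79% against 1.32%). The BEAF-32 word CGATA was in 13.3% against 15.6%, the motif 1 core GGTCACAC in 0.598% against 1.07%, the motif 7 form CATCNCTA in 2.59% against 1.25% and the E-box CAGCTG in 3.78% against 5.49%. GAGAGAG of the GAGA factor was in 2.39% against 2.06%, the initiator TCAGTT in 5.58% against 7.64%, the Zelda site CAGGTAG in 0.398% against 0.567% and the zeste word TGAGTG in 4.78% against 4.85%. None of the 10 passed between single and divergent promoter peaks (lowest adjusted p = 0.212, Fisher's exact test), and 1, the zeste word, had an unadjusted p under 0.05 (0.0438). A match describes the letters of a window and is not evidence of a bound factor.

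The genes at the strongest peaks had diverse roles. The strongest lay 102 bp upstream of CG14100 (chr3L:19590450-19590773) with a signal of 672 and ranked 3 in both replicates. The next, with a signal of 519 and rank 8 in both, lay 481 bp upstream of a TSS of *ph-p*, which encodes the Polycomb group protein polyhomeotic (chrX:2137169-2137534). A second *ph-p* peak (chrX:2137738-2138036, signal 253, ranks 56 and 70) lay 446 bp downstream of another *ph-p* TSS, so that both summits fell between these 2 starts. CG1888 had a summit 226 bp upstream (signal 369, ranks 18 in replicate 2 and 23 in replicate 4). *GstE13*, a glutathione S-transferase gene, was one of the few with a downstream summit, at 58 bp (signal 364, ranks 20 and 21).

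Both sides of lncRNA:CR44619, a long non-coding RNA gene, carried a strong peak. Its summits were 437 bp upstream (chrX:12751216-12751573, signal 356, ranks 9 and 42) and 487 bp downstream of the TSS (chrX:12752229-12752482, signal 315, ranks 37 and 35). Upstream summits followed at SLC5A11, a sodium-coupled transporter gene (149 bp, signal 347), the La-related RNA-binding protein gene *larp* (362 bp, 346), CG18549 (109 bp, 344), *Tina-1* (187 bp, 305), lncRNA:CR44339 (175 bp, 289), the reticulon gene *Rtnl1* (287 bp, 288), CG31145 (198 bp, 287) and CG13921 (99 bp, 287). These 8 ranked from 18 to 66 in both replicates. lncRNA:CR31840 differed, since its peak 7 bp downstream of the TSS (signal 282) ranked 16 in replicate 4 and 689 in replicate 2. The 20 strongest found in both replicates ended with *RluA-1*, a pseudouridine synthase gene (198 bp upstream, signal 279), lncRNA:CR31044 (114 bp, 276), CG17726 (106 bp, 274), the HMG-box factor gene *Sox14* (262 bp, 261) and asRNA:CR45928 (66 bp downstream, 261). The summit near asRNA:CR45928 was also 95 bp upstream of the translation factor gene *eIF6*.

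No difference in signal between peaks at single and at divergent promoters was detected. The signal ran from 53.8 to 672 with a median of 83.6, and the median at divergent promoters was 80.2. Above the median of all promoter peaks lay 260 of 502 single and 263 of 545 divergent peaks (51.8% and 48.3%, odds ratio 1.15, 0.904 to 1.47, two-sided Fisher's exact p = 0.266). Over a signal of 200 there were 37 single and 42 divergent peaks, and 32 of the 100 strongest peaks and 5 of the 20 strongest were at single promoters.

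The replicates held nearly all of these peaks, which had been picked as reproducible with the use of these same lists. Presence and high rank in both replicates, and the likeness of ranks given below, thus partly follow from that choice. A region of replicate 2 covered the summit of 492 and a region of replicate 4 that of 501, both for 491, and the summits of the replicates lay a median of 35 bp apart. Among the 1872 strongest of the 30000 regions in each replicate list were 405 peaks in replicate 2 (80.7%) and 444 in replicate 4 (88.4%), a mean of 84.6% ± 5.49 (SD, n = 2). In both top sets were 354 (70.5%), against 392 of 545 divergent peaks (71.9%, odds ratio 0.934, 0.714 to 1.22, two-sided Fisher's exact p = 0.633). Across the 491 peaks, which share libraries, Spearman's rho between ranks was 0.599 and Pearson's r between log2 signals was 0.665. CycE, the gene of the S-phase cyclin, had the 1 peak with no region in replicate 4. Without a region in replicate 2 were the 10 peaks at *aralar1*, *shn*, mir-9378, lncRNA:CR45365, CG3764, *Wdr62*, *bchs*, *bcd*, lncRNA:CR42794 and *Ccz1*, with signals from 55.3 to 91.3. These names were chosen after their values were seen.

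Peaks that stood high in 1 replicate differed in sequence and place by which replicate it was. Ranks were at least 4 times apart for 67 peaks, of which 45 ranked higher in replicate 4 and 22 in replicate 2. The 45 had a median GC content of 38.6% and 19 summits within 100 bp of the TSS (42.2%), and the 22 had a median of 27.2% and 2 such summits (9.09%). The other 424 peaks had 31.7% and 17.7%. No test was made of this. A region of 1 replicate covered more than 1 of the summits for 24 peaks, and without these the counts were 42 with a median of 39.6% and 19 with a median of 26.7%. How GC content, position and the replicates' protocols bear on each other was not tested. The largest shifts to replicate 4 were at lncRNA:CR31840, CG2201 (ranks 25997 and 869 in replicates 2 and 4), the Toll receptor gene *Toll-7* (1413 and 49), *fkh* (9218 and 413) and CG5335 (14375 and 696). The largest to replicate 2 were at *lama* (563 and 7070), CG42268 (125 and 1368), *prage* (511 and 5024), asRNA:CR44293 (242 and 2152) and CG42394 (113 and 921). The CG42268 summit, 335 bp upstream, shares its replicate 2 region with a stronger peak of the same gene 136 bp upstream (ranks 125 and 457), so its rank there is not its own.

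**Figure D4:**
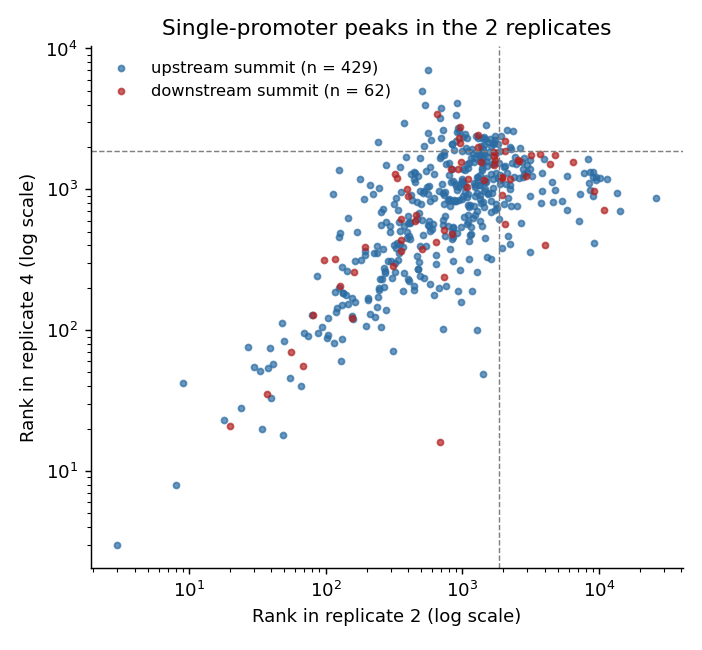
Rank of each single-promoter peak in replicate 2 and in replicate 4 (log axes, 491 peaks with a region in both), coloured by the side of the summit, with dashed lines at rank 1872. The strongest peaks lie along the diagonal, and the scatter widens towards weak peaks, with a tail that ranks far lower in replicate 2.

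Most of the nearest starts were those of protein-coding genes, 439 of 502 (87.5%), against 3548 of 4410 candidates (80.5%, odds ratio 1.69, 1.29 to 2.23, two-sided Fisher's exact p = 8.69e-05). Against the strongest candidates the odds ratio was 1.07 (Fisher's exact p = 0.774). Coding and non-coding starts differed in the side of the summit: it was upstream for 397 of 439 peaks nearest a coding start (90.4%), against 41 of 63 nearest a non-coding start (65.1%, odds ratio 5.07, 2.76 to 9.31, two-sided Fisher's exact p = 7.04e-07, a comparison chosen after the values were seen). With the strongest regions of replicate 4 alone the odds ratio was 3.20 (exact p = 1.42e-04). Among candidates the upstream shares were 59.2% and 48.8%. The 63 peaks at non-coding starts were 44 at 43 lncRNA genes, of which 28 were upstream, 10 at antisense RNAs with 8 upstream, 2 at tRNAs, 2 at snoRNAs, 2 at other non-coding RNAs and 1 each at a microRNA, a snRNA and a pseudogene. No protein-coding TSS lay within 500 bp of 50 peaks.

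Among small RNA genes few carried a single-promoter peak. Peaks that also lay within 500 bp of a TSS of a divergent coding gene were not counted. A summit of the 502 lay within 500 bp of 4 of 290 tRNA genes (1.38%), 2 of 32 snRNA genes (6.25%), 4 of 274 small nucleolar RNA genes (1.46%) and 3 of 260 microRNA genes (1.15%), beside 525 of 13112 non-divergent genes of any kind (4.00%). The strongest tRNA peak was at tRNA:Tyr-GTA-1-8, 196 bp upstream (signal 188, ranks 158 and 119), followed by tRNA:His-GTG-1-3 (97 bp upstream, 76.0). A summit 142 bp upstream of the spliceosomal RNA gene snRNA:U6:96Ac (signal 66.4) was also within 500 bp of snRNA:U6:96Ab. The host gene *Uhg4*, whose introns hold snoRNAs, had a summit 78 bp upstream (signal 90.7), within 500 bp of snoRNA:Or-aca5 and snoRNA:Psi28S-2949. The other snoRNA summits lay downstream, 407 bp from snoRNA:Or-CD4 (67.3) and 426 bp from snoRNA:Or-CD13 (63.7). The microRNA gene mir-9378 had its summit 178 bp upstream (69.1), mir-92a was 498 bp from a summit (135) whose nearest TSS was that of *jigr1*, and mir-9377 was 495 bp from a summit (74.6) nearest to a transcript annotated as FBtr0445485_df_nrg. A summit nearest to *Sema1a* (signal 57.5) lay within 500 bp of tRNA:Asp-GTC-1-4 as well as of its neighbour tRNA:Asp-GTC-1-5. The strongest antisense RNA peaks after asRNA:CR45928 were at asRNA:CR44429 (284 bp upstream, 139) and asRNA:CR43257 (84 bp upstream, 109), and the pseudogene CR42875 had a summit 76 bp downstream (108).

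Single promoters were occupied less often than divergent ones. A peak lay within 500 bp of a TSS for 437 of 8893 non-divergent protein-coding genes (4.91%) and for 974 of 5052 divergent genes (19.3%, odds ratio 0.216, 0.192 to 0.244, two-sided Fisher's exact p = 6.22e-154), where 1 peak between 2 genes counts for both. Among genes with a region of the pooled list in the same window the odds ratio was 0.381 (Fisher's exact p = 3.88e-54). For 436 of the 8893 the peak was one of the 502 (4.90%), which is the background for the lists that follow. The 436 genes were long, with a median of 5931 bp (quartiles 2205 and 16030), against 2006 bp for the 8457 others and 3282 bp for the 2743 of these that had a candidate region. More than 1 TSS was annotated for 51.6%, 22.2% and 37.7% of them. Among genes with 1 TSS the medians were 3197 bp for 211 genes with a peak and 1672 bp for 6580 without, and 2128 bp for those with a candidate region. A gene with more starts offers more promoter windows, and how length and the number of starts bear on occupancy was not tested.

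At 14 genes different starts had a peak of their own. *Ptpmeg2*, a protein tyrosine phosphatase gene on X, had 4 peaks at 4 starts with a highest signal of 176, with 3 summits 204, 179 and 153 bp upstream and the fourth 153 bp downstream. *Rtnl1* had 3 at 3 starts, 287, 205 and 328 bp upstream, with signals of 288, 114 and 62.7. *RapGAP1*, which encodes a regulator of the Rap GTPase, had 3 peaks at 2 starts (54.0 to 174), of which 2 overlap. *dnc*, the cAMP phosphodiesterase gene *dunce*, had summits 255 and 319 bp upstream of 2 starts (176 and 121). With *ph-p* these 5 had the highest summed signal. The others had 2 peaks each and were *gus*, *gro*, CG5910, *CAP*, *mtd*, CG2258, *for*, *CHES-1-like* and *Syx4*.

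Cytosolic ribosomal protein genes had more occupied single promoters, by number, than any other protein-coding list. Distances in the lists are to the nearest TSS of the named gene itself. Of 86 such genes 33 were not divergent, and 9 of these had a peak (27.3%, 13.3 to 45.5%), beside 4.90% of all non-divergent coding genes. The strongest was at *RpL23A*, 84 bp upstream (signal 126, ranks 1181 in replicate 2 and 191 in replicate 4), followed by *RpL24* (37 bp upstream, 70.4, ranks 2074 and 1082) and *RpL22* (42 bp upstream, 70.2, ranks 4600 and 810). All 9 summits lay within 84 bp of the TSS, 7 of them upstream, which is closer than the median of 196 bp over all 502. Each of the 9 ranked lower in replicate 2 than in replicate 4. Their median signal was 66.7, below the median of 83.6 over all 502. Mitochondrial ribosomal protein genes had none among 16 (upper limit 20.6%) and respiratory chain and ATP synthase genes none among 38 (9.25%).

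In lists of genes that guide embryonic development, a few single promoters were occupied. Not divergent were 28 of 30 segmentation genes, 31 of 32 neural genes, 26 of 30 mesoderm and muscle genes and 8 of 8 Hox genes. For ecdysone genes this was 23 of 28 and for signalling genes 27 of 47, beside 8893 of all 13945 coding genes. The counts that follow are out of the genes that were not divergent. Of 26 mesoderm and muscle genes 4 had a peak (15.4%, 4.36 to 34.9%): the heart regulator *tin* (146 bp upstream, signal 100), the myoblast fusion gene *rols* (376 bp, 97.4), the titin-related *sls* (288 bp, 86.9) and the actin gene *Act87E* (354 bp, 55.5). Of 31 neural genes 3 had one (9.68%), at the neuronal RNA-binding protein gene *elav* (233 bp upstream, 173, ranks 155 and 170), the glial receptor gene *moody* (146 bp, 120) and the Notch inhibitor gene *numb* (145 bp, 106). Of 27 signalling genes 4 had one (14.8%), led by *cbt* (397 bp upstream, 128), the Egfr antagonist gene *aos* (320 bp, 74.4) and the Dpp pathway gene *shn* (292 bp, 70.7). The ecdysone list had 4 of 23 (17.4%, 4.95 to 38.8%), led by the transporter gene E23 (195 bp upstream, 173), the nuclear receptor gene *Eip75B* (25 bp downstream, 93.5) and the calcium-binding protein gene *Eip63F-1* (422 bp downstream, 68.3). Of 28 segmentation genes 1 had a peak, the anterior determinant *bcd* (177 bp upstream, 57.0, rank 906 in replicate 4 and no region in replicate 2). None of 8 Hox genes had one (upper limit 36.9%).

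The lists of chromatin and transcription proteins are short, and their intervals are wide. Of 11 architectural protein genes with a single promoter 3 had one (27.3%, 6.02 to 61.0%): the zinc finger gene *row* (68 bp upstream, 90.6, ranks 2172 and 468, the replicate 2 region shared with another peak of the gene) and the insulator protein genes *pita* (137 bp downstream, 66.7, ranks 9249 and 974) and *BEAF-32* (190 bp upstream, 60.4, ranks 6412 and 1553). All 3 were weak in replicate 2. Of 37 ZAD zinc finger genes 5 had one (13.5%, 4.54 to 28.8%), led by CG18476 (200 bp upstream, 107), *Sry-delta* (42 bp, 86.5) and *Phs* (107 bp, 73.7). The membership of this list was not checked against protein sequences, and 1 of the 5, *Kah*, is known as a Snail-type zinc finger gene, so both counts are uncertain. CG31388 itself has a single promoter and had neither a peak nor a candidate region within 500 bp. Among 10 Polycomb group genes *ph-p* was the 1 with a peak, and none of 8 trithorax and remodeller genes had one. The general factors had 1 of 11, *TfIIA-S* (39 bp upstream, 82.3), and the Mediator and RNA polymerase II list 1 of 13, the polymerase subunit gene *Polr2F* (84 bp upstream, 86.3).

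The other lists had from 0 to 3 occupied genes each, beside a share of 4.90% over all non-divergent coding genes. Chaperones had 3 of 19 (15.8%, 3.38 to 39.6%), the small heat shock genes *Hsp27* (180 bp upstream, 217, ranks 104 and 93) and *Hsp26* (164 bp, 61.2) and the mitochondrial *Hsp60A* (99 bp, 56.1), which was also the 1 of 17 in the mitochondrial import list. Translation factors had 2 of 30 (6.67%), *eIF6* and *eEF1gamma* (72 bp upstream, 86.2). Membrane traffic had 2 of 51 (3.92%), the coatomer gene *deltaCOP* (163 bp upstream, 110) and the syntaxin gene *Syx4* (165 bp, 90.8). The cytoskeletal list had 2 of 21 (9.52%), the kinesin gene *nod* (265 bp upstream, 59.2) and *Act87E*. The cell cycle list had 1 of 26 (3.85%), CycE (416 bp upstream, 101). None was occupied among 22 proteasome (upper limit 15.4%), 10 aminoacyl-tRNA synthetase (30.8%), 5 nuclear pore (52.2%) and 3 spliceosome genes (70.8%). Lists this short cannot show a share below the background. Chemosensory receptor and odorant-binding protein genes together had 1 of 193 (0.518%, upper limit 2.85%), at *Obp99b* (259 bp upstream, 58.5), which encodes an odorant carrier and not a receptor, and cuticle protein genes 0 of 107 (upper limit 3.39%).

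**Figure D5:**
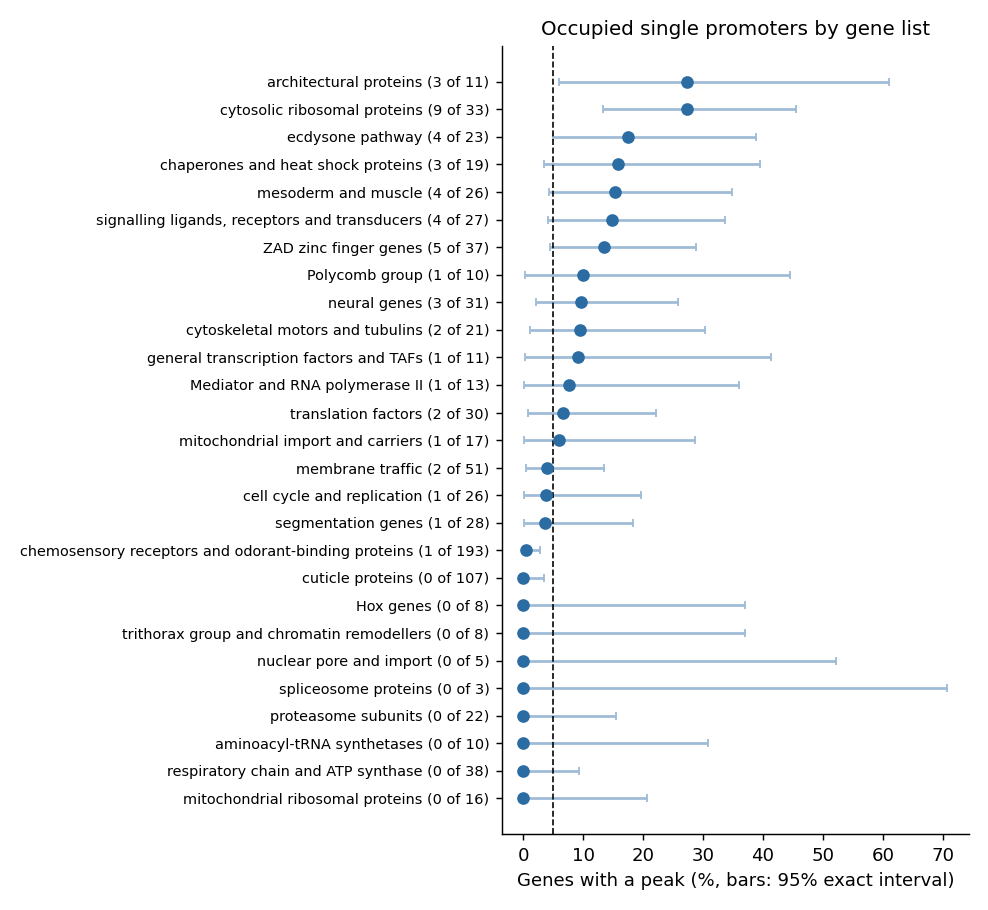
Share of non-divergent protein-coding genes with a single-promoter peak (%, points, with 95% exact intervals) for each gene list, and the share over all such genes as a dashed line at 4.90%. Cytosolic ribosomal protein genes lie to the right of the line with 9 of 33, and chemosensory and cuticle protein genes to the left with 1 of 193 and 0 of 107.

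Single-promoter peaks were spread over the arms, with the X chromosome standing out. Arm 2L held 100 and 2R 90, 3L held 95 and 3R 116, chromosome 4 held 3 and X held 98. The X share was 19.5%, against 9.91% at divergent peaks (54 of 545, odds ratio 2.21, 1.54 to 3.15, two-sided Fisher's exact p = 1.04e-05) and 13.7% of candidates (605 of 4410, odds ratio 1.53, 1.20 to 1.93, p = 7.40e-04, same test). Both comparisons were chosen after the values were seen. Against the strongest candidates the odds ratio was 1.23 (Fisher's exact p = 0.242), and with a promoter window of 250 bp it was 1.23 (exact p = 0.203). Of non-divergent protein-coding genes 15.9% and of divergent ones 15.5% are on X. The upstream share was 84.7% on X and 83.0 to 93.1% on 2L, 2R, 3L and 3R.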

How the data were processed

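The deposited read-me files say that each replicate's regions came from its own alignments with a single control, that pooling the alignments gave a joint list, and that the irreproducible discovery rate picked the reproducible peaks from these 3 lists. The joint list is labelled by the authors as holding background too. Aligner, caller and threshold were not given in the sources used here. Per region, the signal is the enrichment value the authors deposited, and ranks follow it. The deposited −log10 q-value, the score columns and the lists on an older build were not used. Depth is unknown.

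Summits, the deposited offset added to the start, were placed by the nearest transcript start in Ensembl release 115 on the dm6 assembly, without transposable elements. A replicate held a peak when one of its regions covered the summit. Counts were compared by Fisher's exact test, two-sided, with Woolf 95% intervals. Shares have Clopper-Pearson 95% intervals, for counting error only. P-values over 10 motifs or 5 words were adjusted by the Benjamini-Hochberg method with a threshold of 0.05. Python 3.11.15 with scipy 1.17.1, pandas 2.3.3, numpy 2.4.6 and matplotlib 3.10.9 was used, and the tests were tried on simulated data. The 31 gene lists were written from general knowledge, matched by symbol and described by counts, with no test.

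The peaks, gene lists and tests were chosen with earlier results of these data known. Genes were named by 7 rules: the 20 strongest peaks present in both replicates, up to 3 with the strongest peak of each list, the 5 peaks most shifted in rank to each replicate, 3 on each side of the 500 bp limit, the 3 strongest of each non-coding kind, 5 with peaks at several starts, and CG31388. Further names, such as *Act87E* among the muscle genes and the 9 other genes with peaks at several starts, were picked with their values in view. Alternatives were other windows and head-to-head distances, divergence by genes of any kind or with overlapping heads, the 936 strongest peaks, each replicate alone, and other distances and sequence windows. The strongest candidates, genes with 1 TSS, coding starts and upstream summits were added after seeing the data.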

Additional observations from a re-analysis of the deposited data

How the results depend on the processing

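Of 136 values of the main results under 20 other settings, 124 kept their direction and their side of the threshold (counts of motifs or words: stayed within 1.5 times). The upstream odds ratio ran from 2.21 to 6.65 over 12 of these, with a highest p of 2.99e-06 (Fisher's exact test), and that of windows under 30% GC from 1.83 to 3.73. With close taken as 200 bp the odds ratio of close summits was 0.948. Against the strongest candidates the odds ratio was 1.07 for coding starts and 1.23 for the share on X, and for X it was also 1.23 with a promoter window of 250 bp (1.234). None of these passed the threshold. The odds ratio of signal against divergent peaks was 0.993 with the 936 strongest peaks and ran from 0.981 without replicate 2 to 1.00 without replicate 4. That of support by both replicates was 1.06 when genes of any kind made a promoter divergent. None of these passed in the main analysis or here. Motifs past the threshold against candidates were 2 with a promoter window of 1000 bp (TATA and the motif 7 form), 2 with 100 bp on each side of the summit (TATA and GAGA) and 2 for summits 1 to 300 bp upstream (TATA and the BEAF-32 word), and against divergent peaks they were 1 with a promoter window of 250 bp and 5 with 100 bp on each side. Single motifs that did not pass changed direction in 10 of 110 values. The odds ratio of the replication-related element was 0.936 with a head-to-head distance of 500 bp and from 0.997 to 1.73 without replicate 4 or 2. That of the BEAF-32 word was 0.971 and 1.07 without replicate 4 or 2. GAGA had 0.844 with a promoter window of 250 bp and 0.651 for summits 1 to 300 bp upstream, and Zelda 1.56 with a promoter window of 1000 bp. The zeste word had 1.03 with a head-to-head distance of 2000 bp, 1.02 when genes of any kind made a promoter divergent, 1.04 with the 936 strongest peaks and 1.08 with 100 bp on each side. The cause of these changes was not tested. No paired analysis was possible because the 2 libraries form 1 group. With the read depth unknown, counting error of reads could not be set beside any signal.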
